A study of Homo sapiens with 9 samples.

Results

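The 10 genes described here, GGT1, GGT5, GGT7, GCLC, GCLM, GSS, GSR, GPX2, GPX3 and GSTP1, make, recycle, spend or break down glutathione. They were taken by symbol from 23284 gene symbols in the deposited RNA-Seq tables, and all 10 were found. RNA was measured in the HT-29 human colon cancer cell line, whose colon epithelial marker genes were all above 0. Triplicate dishes received vehicle (DMSO, 0 µM 5-Aza), 5 µM 5-Aza or 10 µM 5-Aza for 5 days, so each group holds 3 replicates and all 9 libraries come from 1 cell line. 5-Aza is 5-aza-deoxycytidine, a cytidine analogue that is built into DNA and traps DNA methyltransferases, so that methylation at CpG sites is lost as cells divide. The study set RNA-Seq beside microarrays on this RNA and chose GGT1 and GGT7, among genes called from these libraries, for qRT-PCR. The rise of both genes at 5 µM is therefore not independent evidence, and the array and qRT-PCR values were not analysed here.

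Glutathione is a small peptide of glutamate, cysteine and glycine and the main soluble thiol of the cell. Glutamate-cysteine ligase, a catalytic subunit (GCLC) with a modifier subunit (GCLM), makes gamma-glutamylcysteine, and glutathione synthetase (GSS) adds the glycine. Peroxidases such as GPX2 and GPX3 spend glutathione on peroxides, glutathione reductase (GSR) returns the oxidised form, glutathione transferases such as GSTP1 join it to electrophiles, and gamma-glutamyltransferases at the cell surface begin its breakdown outside the cell. In the intestinal epithelium, GPX2 is known as the gastrointestinal peroxidase, and GSTP1 is widely used as a marker of many carcinomas.

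At 5 µM 5-Aza, GGT1, GGT7 and the secreted peroxidase GPX3 rose and GPX2 fell, while GCLC, GCLM and GSS, which make glutathione, were not called: GSS had an adjusted p under 0.05 but lay within the fold threshold. GGT1 averaged 2.71 times, GGT7 3.01 times and GPX3 3.31 times the control level, whereas GPX2 was at 46.5% of it. At 10 µM, GGT1 and GGT7 were still above the control, at 2.04 and 2.75 times its level, and GPX3 had fallen to 35.5% of its level at 5 µM. Calls required a limma p, adjusted by Benjamini-Hochberg, no larger than 0.05 and a difference beyond 1 or -1 on the log2(FPKM + 1) scale, which is a fold change of 2. For 5 µM vs. 0 µM, 3 of 10 genes rose, beside 14.1% of the 20051 genes tested, and 1 fell, beside 2.17%. For 10 µM vs. 5 µM, none of the 10 rose, beside 0.129% of 20085 genes tested, and 1 fell, beside 4.82%. For 10 µM vs. 0 µM, 2 rose, beside 4.07% of 18928 genes tested, and none fell, beside 3.4%. The risers of both comparisons with the control include GGT1 and GGT7, which the study had chosen from these libraries, so these counts are not independent evidence. Of the remaining genes, only GPX3 rose at 5 µM vs. 0 µM and none rose at 10 µM vs. 0 µM. At an unadjusted limma p under 0.05, none of the 10 was higher at 10 µM vs. 5 µM, and 3 were lower at 10 µM vs. 0 µM. The share of all genes tested at this unadjusted limit was not computed. The limma F test over the 3 concentrations called 5 of the 10 genes (GGT1, GGT7, GSS, GPX2 and GPX3), beside 35% of 20225 genes tested. The median log2 difference of the 10 genes was -0.03 at 5 µM vs. 0 µM, -0.27 at 10 µM vs. 5 µM and -0.28 at 10 µM vs. 0 µM. Over all genes tested it was 0.14, -0.31 and -0.15 in the same order. The 3 comparisons share samples pairwise. In bulk RNA, fewer cells with a transcript and less transcript per cell cannot be told apart.

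**Figure D1:**
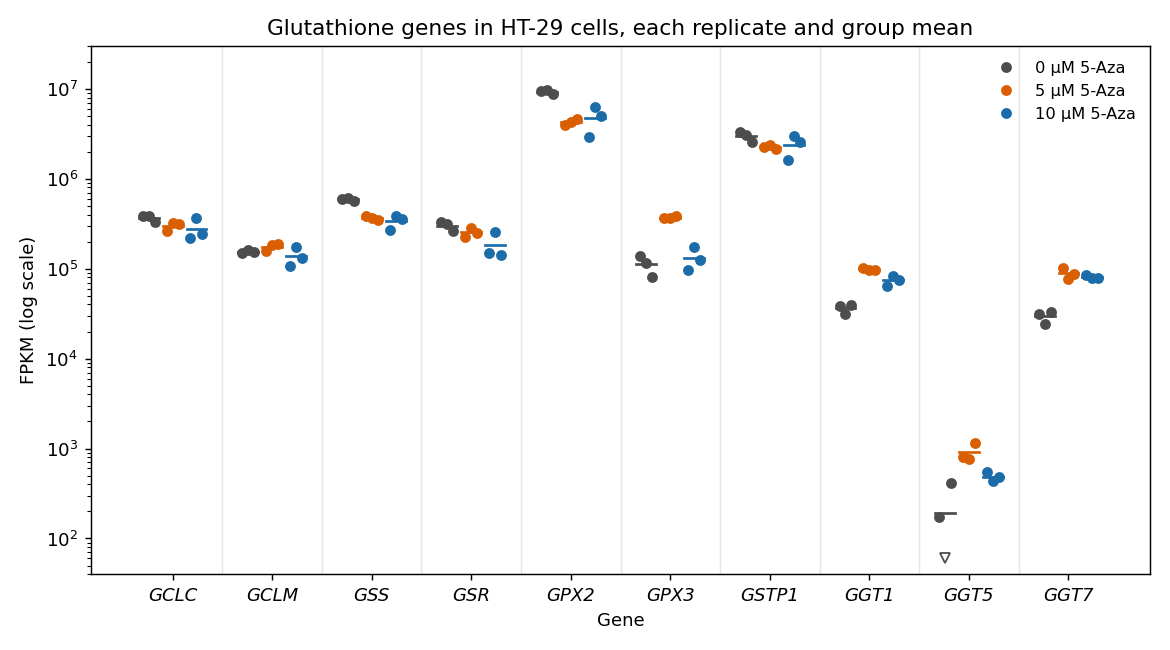
FPKM of each of the 10 genes (log scale) in every replicate at 0 µM, 5 µM and 10 µM 5-Aza, with a bar at each group mean. The open triangle marks control replicate 2 of GGT5, which is listed at 0. GGT1 and GGT7 lie higher at both concentrations than in the control, GPX3 is high at 5 µM only, and GPX2 is lower at both.

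The genes were expressed at very different levels. FPKM is a level per transcript length, but here it did not scale simply with length. In control replicate 1 the smallest step was 2484690 FPKM at genes of 110 nucleotides and 174 FPKM at GGT5 (2428 nucleotides). The order between genes is therefore approximate. GPX2 and GSTP1 have the shortest reference transcripts of the 10 (922 and 741 nucleotides). In the control the order of mean FPKM was GPX2, GSTP1, GSS, GCLC, GSR, GCLM, GPX3, GGT1, GGT7 and GGT5. Replicates of GGT1 and GGT7 overlapped there, and those of GCLC and GSR were separated by less than the SD of either. At 5 µM, GPX3 stood between GSTP1 and GSS, its replicates overlapped those of GSS, and the same held for GCLC with GSR and for GGT1 with GGT7. At 10 µM every neighbouring pair from GSS down to GPX3 overlapped, as did GPX2 with GSTP1, and the mean of GGT7 lay above that of GGT1 with overlapping replicates.

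The promoters are shown because 5-Aza acts at CpG sites. RefSeq start sites on GRCh38.p14 gave a window of 300 bases, from 250 before to 50 after the start, for 7 of the 10 genes, with 2 windows for GGT1. GGT5, GSS and GSR had none. The windows of the genes called at 5 µM follow, read 5′ to 3′ along the gene, in lower case with every CG in capitals. Methylation itself was not analysed here.
GGT1 window 1, chr22:24583500-24583799, plus strand: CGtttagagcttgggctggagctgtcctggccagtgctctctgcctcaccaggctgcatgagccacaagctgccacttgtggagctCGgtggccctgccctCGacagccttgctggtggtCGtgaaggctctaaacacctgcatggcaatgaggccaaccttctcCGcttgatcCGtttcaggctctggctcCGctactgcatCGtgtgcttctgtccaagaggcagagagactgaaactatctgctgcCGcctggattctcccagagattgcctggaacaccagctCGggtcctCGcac
GGT1 window 2, chr22:24602943-24603242, plus strand: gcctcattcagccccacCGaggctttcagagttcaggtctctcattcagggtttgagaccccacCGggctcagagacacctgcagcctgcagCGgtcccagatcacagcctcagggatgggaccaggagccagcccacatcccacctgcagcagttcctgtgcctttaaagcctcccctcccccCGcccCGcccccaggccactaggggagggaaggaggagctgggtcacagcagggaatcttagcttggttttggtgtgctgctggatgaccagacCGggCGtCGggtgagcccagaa
GGT7, chr20:34872807-34873106, minus strand: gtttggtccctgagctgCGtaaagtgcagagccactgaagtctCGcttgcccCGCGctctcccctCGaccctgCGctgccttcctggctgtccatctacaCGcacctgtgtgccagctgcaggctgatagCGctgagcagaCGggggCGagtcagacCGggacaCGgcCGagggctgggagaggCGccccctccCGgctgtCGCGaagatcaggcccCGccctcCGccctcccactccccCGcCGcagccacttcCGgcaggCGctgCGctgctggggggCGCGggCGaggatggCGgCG
GPX3, chr5:151020341-151020640, plus strand: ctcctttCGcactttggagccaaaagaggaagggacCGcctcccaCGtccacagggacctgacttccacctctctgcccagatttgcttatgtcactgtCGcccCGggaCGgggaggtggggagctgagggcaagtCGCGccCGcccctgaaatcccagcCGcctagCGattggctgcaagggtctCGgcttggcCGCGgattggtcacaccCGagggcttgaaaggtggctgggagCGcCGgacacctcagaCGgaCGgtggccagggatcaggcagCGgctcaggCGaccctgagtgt
GPX2, chr14:64942696-64942995, minus strand: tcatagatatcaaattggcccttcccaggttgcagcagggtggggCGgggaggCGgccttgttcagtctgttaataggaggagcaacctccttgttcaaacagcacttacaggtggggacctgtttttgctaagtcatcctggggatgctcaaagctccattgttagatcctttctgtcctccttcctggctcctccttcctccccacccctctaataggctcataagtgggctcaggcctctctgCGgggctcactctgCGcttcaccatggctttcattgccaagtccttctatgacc

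Over 35114 RefSeq windows of this length the median was 14 CG. GGT7 had 29 CG, more than 75.8% of all windows, and GPX3 had 21, more than 60.5%. GGT1 had 11 in the first window and 8 in the second, more than 45.3% and 39.3% of windows. GPX2, the gene that fell, had 4, more than 24.5%. The risers thus ranged from below to above the median of all windows. Among genes that were not called at 5 µM, GCLC had 32 CG, GSTP1 36 and GCLM 41, the last more than 93.3% of windows. The motif TGACNNNGC, the core of the antioxidant response element, was searched on both strands and is in 13.3% of all windows. It stood once each in GGT1 window 2, GCLM, GPX2 and GSTP1. GGGCGG, the GC box, is in 45% of all windows and stood 2 times in GGT1 window 2, GGT7 and GSTP1 and once in GCLM, GPX2 and GPX3. The 2 motifs were not seen in GCLC or in GGT1 window 1, which says only that these letters are not in those windows.

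GGT1 is the classical gamma-glutamyltransferase of the cell surface. It maps to chr22:24990778-25024972 (GRCh37, plus strand). Its FPKM was 38764, 31727 and 39081 in control replicates 1 to 3, 102849, 96517 and 97773 at 5 µM, and 64300, 83825 and 75333 at 10 µM. All 6 treated libraries lay above all 3 controls, and all 3 libraries at 10 µM lay below those at 5 µM. The means were 36524 ± 4157, 99046 ± 3353 and 74486 ± 9790 (SD, n = 3 each). The log2 difference of 5 µM vs. 0 µM was 1.45 (SE 0.11, limma adjusted p = 0.000345). That of 10 µM vs. 0 µM was 1.03 (SE 0.17, limma adjusted p = 0.0139), just past the fold threshold. The call at 10 µM was lost without control replicate 2 (0.93, limma adjusted p = 0.0643), without 10 µM replicate 2 (0.94, adjusted p = 0.0103) and without 10 µM replicate 3 (1.01, adjusted p = 0.0525). The difference of 10 µM vs. 5 µM was -0.42 (95% interval -0.75 to -0.09, limma adjusted p = 0.132) and was not called.

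GGT1 shares sequence with near-identical copies on chromosome 22 and elsewhere, between which reads can be split in either direction, so its level is uncertain. The copies GGT3P and GGT8P were added after their values were seen. GGT3P had 3993 ± 1389, 10166 ± 670 and 9953 ± 205 FPKM (SD, n = 3) at 0 µM, 5 µM and 10 µM. GGT8P had 796 ± 239, 13482 ± 1563 and 5737 ± 323 FPKM (SD, n = 3). The light-chain gene GGTLC2 had 8114 ± 2216, 23590 ± 3267 and 19690 ± 7387 FPKM (SD, n = 3). All treated means of these copies were above their control means. The light-chain gene GGTLC1 had 1838, 0 and 469 FPKM in the control, 2813, 2851 and 4804 at 5 µM, and 1735, 1830 and 4242 at 10 µM, so that its 10 µM libraries overlapped the control. GGTLC1 was not called at 5 µM or 10 µM vs. 0 µM (limma adjusted p = 0.174 and 0.232), and GGTLC2 was called at 5 µM but not at 10 µM (adjusted p = 0.0642). Of the summed FPKM of GGT1, GGT3P, GGT8P, GGTLC1 and GGTLC2, GGT1 held 71.5%, 77.5% and 70.5% in the control, 65%, 67.3% and 66.2% at 5 µM, and 68.2%, 69.6% and 61.4% at 10 µM. GGT1 took the larger share in each library. The family member GGT2 was not among the symbols and is not in this sum, so the share among all copies is not known.

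GGT7 is a family member whose role in glutathione breakdown is less well defined. It maps to chr20:33432523-33460659 (GRCh37, minus strand) and overlaps ACSS2 on the opposite strand. The TruSeq RNA kit does not mark strand, so reads of the shared stretch cannot be told apart. GGT7 had 31099, 24342 and 32905 FPKM in the control, 101361, 77097 and 87647 at 5 µM, and 85274, 78050 and 79752 at 10 µM. Every treated library exceeded every control library, while 5 µM and 10 µM overlapped. The means were 29449 ± 4514, 88702 ± 12166 and 81025 ± 3777 (SD, n = 3 each). The log2 difference was 1.59 for 5 µM vs. 0 µM (SE 0.16, limma adjusted p = 0.000784) and 1.47 for 10 µM vs. 0 µM (SE 0.17, limma adjusted p = 0.00561). Between 10 µM and 5 µM it was -0.12 (95% interval -0.46 to 0.22, limma adjusted p = 0.598).

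GGT5, which cleaves glutathione and the leukotriene made from it, was the least expressed of the 10. It maps to chr22:24615622-24641076 (GRCh37, minus strand), 349702 bases from GGT1. Its FPKM was 174, 0 and 409 in the control, 798, 763 and 1153 at 5 µM, and 549, 434 and 478 at 10 µM. No groups overlapped for GGT5, but its levels rest on very few sequenced fragments. One fragment at microRNA genes of 110 nucleotides sets each library's relative depth, and after division by it 7 of the 8 GGT5 values above 0 were whole multiples of the smallest one, within 0.02. In such units, each a fragment or a simple fraction of one, GGT5 had 1, 0 and 5 in the control, 11, 10 and 17 at 5 µM, and 4, 5 and 4.67 at 10 µM. Control replicate 1 sets the unit, so it is among the 7 by definition. Summed per group and set against depth, 5 µM was 4.05 times the control (95% exact binomial interval 1.7 to 11.7) and 10 µM 0.537 times 5 µM (0.269 to 1.01). The ratio of 10 µM to the control was 2.18 (0.786 to 6.91), an interval that includes 1. Such intervals cover counting error only. Limma did not call GGT5 in any comparison (5 µM vs. 0 µM, adjusted p = 0.164). With a pseudocount of 1000 in place of 1 the log2 difference at 5 µM was 0.68 and not 4.42, so the fitted difference of this gene depends on the pseudocount.

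GPX3, the peroxidase found in plasma, had a peak at 5 µM. It maps to chr5:150400152-150408549 (GRCh37, plus strand). Its FPKM was 139895, 115814 and 80280 in the control, 366551, 363760 and 381111 at 5 µM, and 96896, 174139 and 123899 at 10 µM. Those at 5 µM stood apart from all other libraries, and the 10 µM libraries overlapped the control. The means were 111996 ± 29990, 370474 ± 9317 and 131645 ± 39200 (SD, n = 3 each). GPX3 rose by a log2 difference of 1.76 at 5 µM vs. 0 µM (SE 0.20, limma adjusted p = 0.00107). It fell by 1.53 on the log2 scale at 10 µM vs. 5 µM (SE 0.21, limma adjusted p = 0.00963). For 10 µM vs. 0 µM the difference was 0.23 (95% interval -0.41 to 0.87, limma adjusted p = 0.559). The adjusted p of the fall was 0.0555, 0.0567 and 0.0682 without 5 µM replicate 1, 2 and 3, each past the limit of 0.05, with a log2 difference between -1.55 and -1.51.

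GPX2 had the highest FPKM of the 10 in each group. It maps to chr14:65405870-65409464 (GRCh37, minus strand), and CHURC1 overlaps it on the opposite strand. Its FPKM was 9379420, 9662870 and 8656770 in the control, 3980640, 4289370 and 4623410 at 5 µM, and 2945140, 6213030 and 5032530 at 10 µM. No treated library reached the control. The 10 µM libraries spread on both sides of the 5 µM libraries. The means were 9233020 ± 518781, 4297807 ± 321468 and 4730233 ± 1654785 (SD, n = 3 each). GPX2 fell by 1.10 on the log2 scale at 5 µM vs. 0 µM (SE 0.11, limma adjusted p = 0.000885). At 10 µM vs. 0 µM the difference was -1.03 (SE 0.37, limma adjusted p = 0.0965) and was not called. Without 10 µM replicate 2 it was -1.26 (limma adjusted p = 0.0268) and was called.

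**Figure D2:**
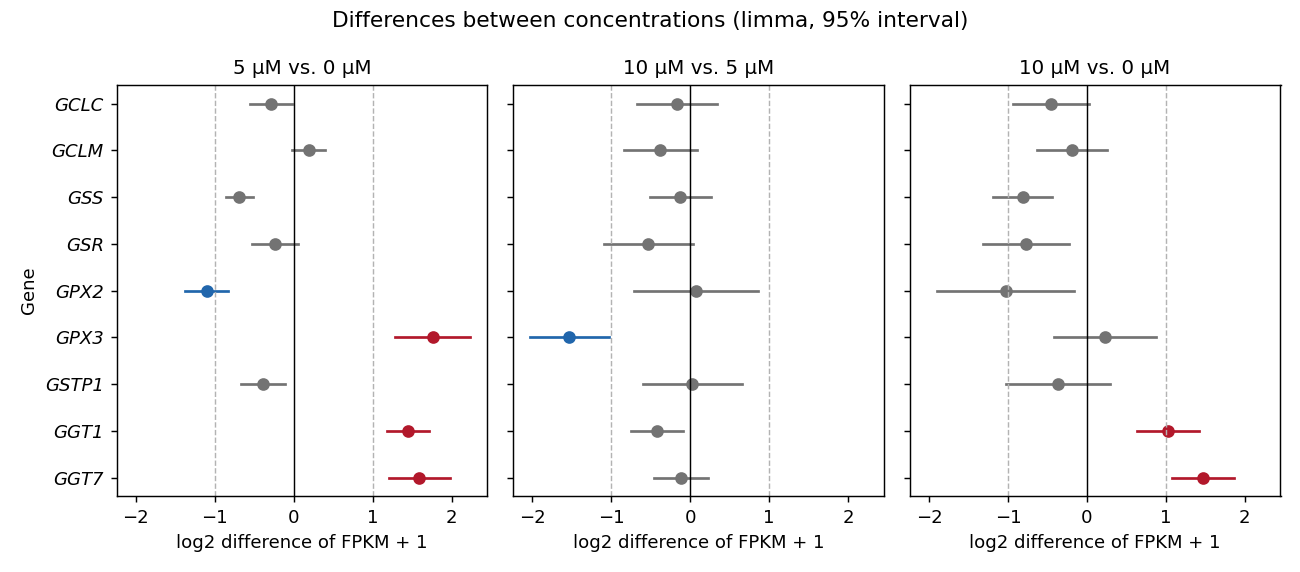
Log2 difference of FPKM + 1 (x axis) with its 95% interval from limma for 9 of the 10 genes in each comparison. Red marks genes called higher, blue genes called lower, grey genes not called, and dashed lines a fold change of 2. GGT5 is left out because its difference depends on the pseudocount. GGT1, GGT7 and GPX3 are red at 5 µM vs. 0 µM.

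The opposite moves of GPX2 and GPX3 changed their balance. This ratio and those that follow were chosen after the values were seen and are descriptions. GPX2 had 67, 83.4 and 108 times the FPKM of GPX3 in the 3 controls, 10.9, 11.8 and 12.1 times at 5 µM, and 30.4, 35.7 and 40.6 times at 10 µM. No groups overlapped, with 5 µM lowest and 10 µM between. A ratio within a library does not depend on that library's scaling.

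The enzymes that make glutathione were not called in any pairwise comparison. GSS maps to chr20:33516235-33543830 (GRCh37, minus strand) and overlaps MYH7B on the opposite strand. GSS had 595717, 607973 and 560408 FPKM in the control, 387539, 362249 and 345950 at 5 µM, and 271113, 383484 and 360184 at 10 µM. All treated libraries lay below all controls. The means were 588033 ± 24696, 365246 ± 20956 and 338260 ± 59307 (SD, n = 3 each), so GSS was at 62.1% of the control at 5 µM and 57.5% at 10 µM. On the log2 scale the difference was -0.69 at 5 µM vs. 0 µM (SE 0.07, limma adjusted p = 0.000813) and -0.81 at 10 µM vs. 0 µM (SE 0.16, limma adjusted p = 0.0214). Both adjusted p values were under 0.05, but the difference was within the fold threshold, so GSS was not called in the pairwise comparisons. GSS and GGT7 lie 55576 bases apart on the same strand. GSS had 19.2, 25 and 17 times the FPKM of GGT7 in the controls, 3.82, 4.7 and 3.95 times at 5 µM, and 3.18, 4.91 and 4.52 times at 10 µM.

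GCLC maps to chr6:53362139-53481768 and GCLM to chr1:94350755-94375012, both on the minus strand of GRCh37. GCLC had 387206, 385366 and 329640 FPKM in the control, 263290, 325167 and 317559 at 5 µM, and 217777, 364662 and 241686 at 10 µM. Its 5 µM libraries were all below the controls, at 82.2% on average, and the 10 µM libraries overlapped the controls. GCLC had log2 differences of -0.29 (95% interval -0.55 to -0.02, limma adjusted p = 0.0867) at 5 µM and -0.45 (-0.93 to 0.03, adjusted p = 0.16) at 10 µM, against the control. GCLM had 147892, 161716 and 152166 FPKM in the control, 157967, 183723 and 186475 at 5 µM, and 106721, 176198 and 131387 at 10 µM, with overlap between all groups. Its log2 differences were 0.19 (95% interval -0.02 to 0.40, limma adjusted p = 0.127) and -0.19 (-0.63 to 0.26, adjusted p = 0.515). Within a library, catalytic GCLC had 2.62, 2.38 and 2.17 times the FPKM of modifier GCLM in the controls, 1.67, 1.77 and 1.7 times at 5 µM, and 2.04, 2.07 and 1.84 times at 10 µM. This ratio was highest in the control and lowest at 5 µM, without overlap between groups.

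**Figure D3:**
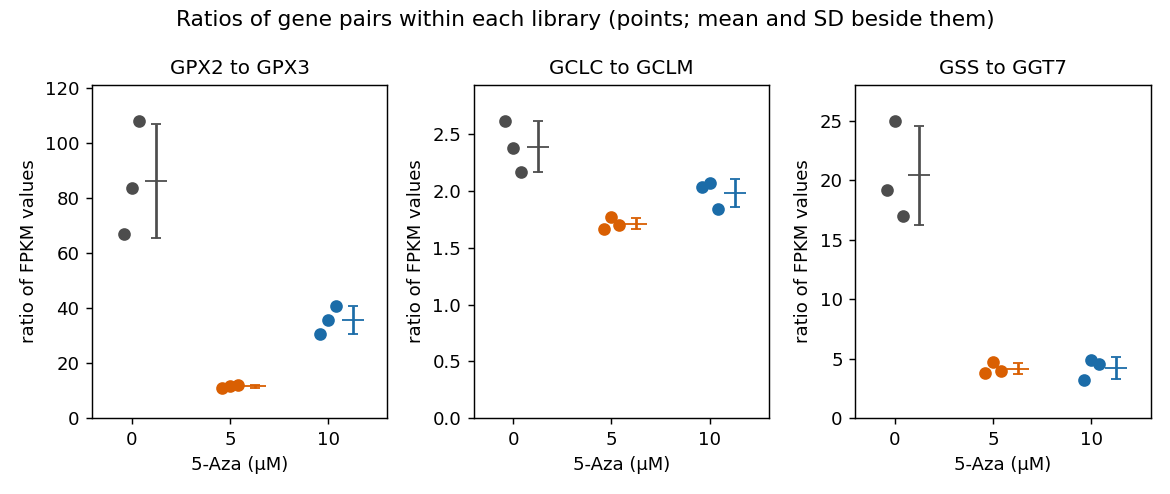
Ratio of FPKM values within each library for GPX2 to GPX3, GCLC to GCLM and GSS to GGT7 (y axis) by 5-Aza concentration in µM (x axis), with the mean and SD of 3 replicates beside the points. The control libraries lie above both treated groups in each panel, and GPX2 to GPX3 is near 11.6 at 5 µM and 35.6 at 10 µM.

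GSR and GSTP1, which restore and use glutathione, were not called in any pairwise comparison. GSR maps to chr8:30535583-30585363 (GRCh37, minus strand). GSR had 328023, 310038 and 263331 FPKM in the control, 226874, 285988 and 248926 at 5 µM, and 149099, 254136 and 141615 at 10 µM. Libraries at 5 µM overlapped the controls and the 10 µM libraries were all lower. For 10 µM vs. 0 µM the log2 difference was -0.77 (95% interval -1.32 to -0.22, limma adjusted p = 0.0644). Without 10 µM replicate 2 it was -1.04 (limma adjusted p = 0.00488) and was called. GSTP1 maps to chr11:67351213-67354127 (GRCh37, plus strand). It had 3329730, 3033210 and 2580290 FPKM in the control, 2280670, 2379380 and 2141820 at 5 µM, and 1608220, 2963770 and 2565620 at 10 µM. At 5 µM all 3 libraries were below the controls, at 76.1% on average, with a log2 difference of -0.39 (SE 0.12, limma adjusted p = 0.0398) that was within the fold threshold. At 10 µM the difference from the control was -0.36 (95% interval -1.02 to 0.29, limma adjusted p = 0.384).

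Part of the spread at 10 µM was shared between genes. In that group 8 of the 10 genes were highest in replicate 2 and 7 were lowest in replicate 1. The FPKM values of the 3 libraries summed to 3.69e+09, 5.08e+09 and 4.2e+09, and their median-of-ratios factors were 0.835, 1.055 and 0.857, against 1.003 to 1.101 in the other libraries. Dividing by such factors moves the genes above 0 in every library by 0.2 at 10 µM vs. 5 µM and by 0.24 at 10 µM vs. 0 µM, both upward on the log2 scale, and leaves every pairwise call of the 10 genes as it was. With this scaling GGT1 had a log2 difference of 1.27 and GGT7 of 1.71 at 10 µM vs. 0 µM, GPX3 of -1.33 at 10 µM vs. 5 µM, and GPX2 of -0.79 at 10 µM vs. 0 µM. The SD of log2 values at 10 µM went from 0.39 to 0.21 for GCLC and from 0.47 to 0.29 for GSR, but from 0.07 to 0.24 for GGT7. Which scaling is closer to the RNA in the cells was not tested.

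Cell identity markers moved beside these genes. The summed FPKM of 10 colon epithelial markers, EPCAM, CDX2 and the keratins KRT8 and KRT18 among them, was 82854663 to 99292368 in the control, 35216442 to 39881222 at 5 µM and 27544530 to 48303702 at 10 µM, with none at 0. KRT8 and KRT18 were the largest terms of the control sum, with 39381667 and 32981667 FPKM on average. At 5 µM vs. 0 µM, CDX1 and CEACAM5 rose (2 of 10, beside 14.1% of all genes tested) and KRT8 and KRT18 fell (2 of 10, beside 2.17%). The sum of 10 markers of blood, vessel, connective tissue, muscle and liver cells was 52001 to 73257 in the control, 158041 to 185456 at 5 µM and 90758 to 109048 at 10 µM. Most of its rise at 5 µM came from CD79A, with means of 8368 and 79001 FPKM at 0 µM and 5 µM, and COL1A1, with 6567 and 37114. CD14, the largest term of the control sum, had 40514 and 37791. CD14, PTPRC, COL3A1 and ACTA2 were not called at 5 µM vs. 0 µM. The T cell gene CD3E and the liver gene ALB were at 0 in all controls, and 6 of these 10 markers rose at 5 µM vs. 0 µM, beside 14.1% of all genes tested. By the step at microRNA genes, all controls had less depth than every 5 µM library, so a listed 0 does not show absence there. The part of these marker shifts in the values of the glutathione genes was not tested.

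Other genes listed under the gamma-glutamyl cycle, a route that breaks glutathione down and returns its parts, were counted from 14 symbols. All but GGT2 were found, which left 13. Of the 13, 7 rose (beside 14.1% of all genes tested) and none fell (beside 2.17%) at 5 µM vs. 0 µM, with a median log2 difference of 1.43 beside 0.14 over all genes tested. The risers were GGT6, GGTLC2, DPEP1, which splits cysteinylglycine, its family members DPEP2 and DPEP3, and the aminopeptidases ANPEP and LAP3. DPEP2 was listed at 0 in all libraries at 0 µM and 10 µM and had 1483, 1115 and 198 FPKM at 5 µM. It is near the floor, and the size of its differences depends on the pseudocount. The transferase GGT6 had 16822 ± 979, 71551 ± 6950 and 47754 ± 8825 FPKM (SD, n = 3) at 0 µM, 5 µM and 10 µM. DPEP3 was listed at 0 in all controls and had 18916, 14437 and 20795 FPKM at 5 µM and 1577, 1996 and 1763 at 10 µM. At 10 µM vs. 5 µM, 3 of the 13 fell (DPEP2, DPEP3 and ANPEP), beside 4.82% of all genes tested, and none rose, beside 0.129%. Of 12 tested at 10 µM vs. 0 µM, GGT6, DPEP3 and ANPEP rose, beside 4.07% of all genes tested. One of the 12, beside 3.4%, fell in that comparison: CHAC2, which degrades glutathione in the cytosol, decreased by 1.04 on the log2 scale (SE 0.23, limma adjusted p = 0.0271).

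Among 7 genes that supply cysteine, 1 rose at 5 µM vs. 0 µM, which is near the 14.1% of all genes tested, and 1 fell, beside 2.17%. CBS, which starts the making of cysteine from homocysteine, had 0, 944 and 607 FPKM in the control, 49861, 41835 and 41630 at 5 µM and 8919, 8224 and 7042 at 10 µM. CBS then fell by 2.46 on the log2 scale at 10 µM vs. 5 µM (SE 0.20, limma adjusted p = 0.00292). The cysteine and glutamate carrier SLC1A1 fell by 1.10 at 5 µM vs. 0 µM (SE 0.09, limma adjusted p = 0.000421) and by 1.32 at 10 µM vs. 0 µM (SE 0.17, adjusted p = 0.00691). The cystine carrier SLC7A11 had a log2 difference of -0.53 at 5 µM vs. 0 µM (limma adjusted p = 0.0115), within the fold threshold. Of the remaining glutathione peroxidases 3 of 6 were tested, and GPX8 fell by 1.63 at 5 µM vs. 0 µM (SE 0.17, limma adjusted p = 0.000919). GPX8 was 1 of 3, beside 2.17% of all genes tested. GPX5, GPX6 and GPX7 were listed at 0 in all libraries.

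Of 18 glutathione transferases other than GSTP1, 5 rose (beside 14.1% of all genes tested) and 1 fell (beside 2.17%) at 5 µM vs. 0 µM, with a median log2 difference of -0.38. The risers were GSTA1, GSTA2, GSTA3, GSTA4 and GSTM3. GSTA1 was listed at 0 in all controls and had 3385, 4785 and 4533 FPKM at 5 µM and 2869, 1452 and 1928 at 10 µM. GSTA4 had 38538, 38061 and 26914 FPKM in the control, 137584, 154695 and 145291 at 5 µM, and 86713, 95607 and 112446 at 10 µM. GSTZ1, which acts in tyrosine breakdown, fell by 1.17 at 5 µM vs. 0 µM (SE 0.16, limma adjusted p = 0.00201) and by 1.26 at 10 µM vs. 0 µM (SE 0.15, adjusted p = 0.00592). The alpha class genes are close relatives between which reads can be split, so their single values are uncertain. GSTA2 had 0, 0 and 0 FPKM in the control and 820, 2435 and 811 at 5 µM. GSTA3 had 0, 0 and 510 in the control and 3172, 3338 and 2965 at 5 µM. With controls listed at 0, the size of the GSTA1, GSTA2 and GSTA3 differences depends on the pseudocount. At 10 µM vs. 5 µM GSTM3 fell (1 of 18, beside 4.82% of all genes tested) and no transferase rose (beside 0.129%). At 10 µM vs. 0 µM, of 17 tested, GSTA1 and GSTA4 rose (beside 4.07%) and GSTZ1 and MGST3 fell (beside 3.4%).

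The lists of glutaredoxin and thioredoxin genes, glyoxalase genes and NRF2 genes gave no call. None of 15 glutaredoxin, thioredoxin and peroxiredoxin genes, 3 glyoxalase genes or 6 genes of a short NRF2 list was called in any comparison, where 0.129% to 14.1% of all genes tested rose and 2.17% to 4.82% fell. The NRF2 list held only NFE2L2, KEAP1, NQO1, HMOX1, FTL and FTH1. NRF2 targets that stand elsewhere, among the 10 genes or in other lists, are not covered by this count. The median log2 difference at 5 µM vs. 0 µM was -0.13, -0.30 and -0.18 for the 3 lists. At an unadjusted limma p under 0.05, 1 of the 15, 2 of the 3 and 4 of the 6 differed at 5 µM vs. 0 µM. At the same limit, 4 of the 15 were lower at 10 µM vs. 5 µM, and none of the 3 or the 6 differed. At 10 µM vs. 0 µM, 6 of the 15, 2 of the 3 and 1 of the 6 were lower, and none was higher. The share of all genes tested at this unadjusted limit was not computed, so no shift of these lists can be read from such counts. NQO1, the best known NRF2 target among them, had a log2 difference of -0.87 at 5 µM vs. 0 µM (limma adjusted p = 0.00476), within the fold threshold. Of 6 NADPH-supplying genes, which feed GSR, ME1 fell by 1.09 at 10 µM vs. 0 µM (SE 0.19, limma adjusted p = 0.0161) and no other call was made. This fall was 1 of 6, beside 3.4% of all genes tested in that comparison. Of 5 exporters of glutathione conjugates, ABCC2 rose by a log2 difference of 2.00 at 5 µM vs. 0 µM (SE 0.26, limma adjusted p = 0.00193). That is 1 of 5, near the 14.1% of all genes tested. ABCC2 had 2206, 1774 and 2288 FPKM in the control, 7566, 7996 and 9399 at 5 µM, and 3223, 4590 and 4815 at 10 µM.

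**Figure D4:**
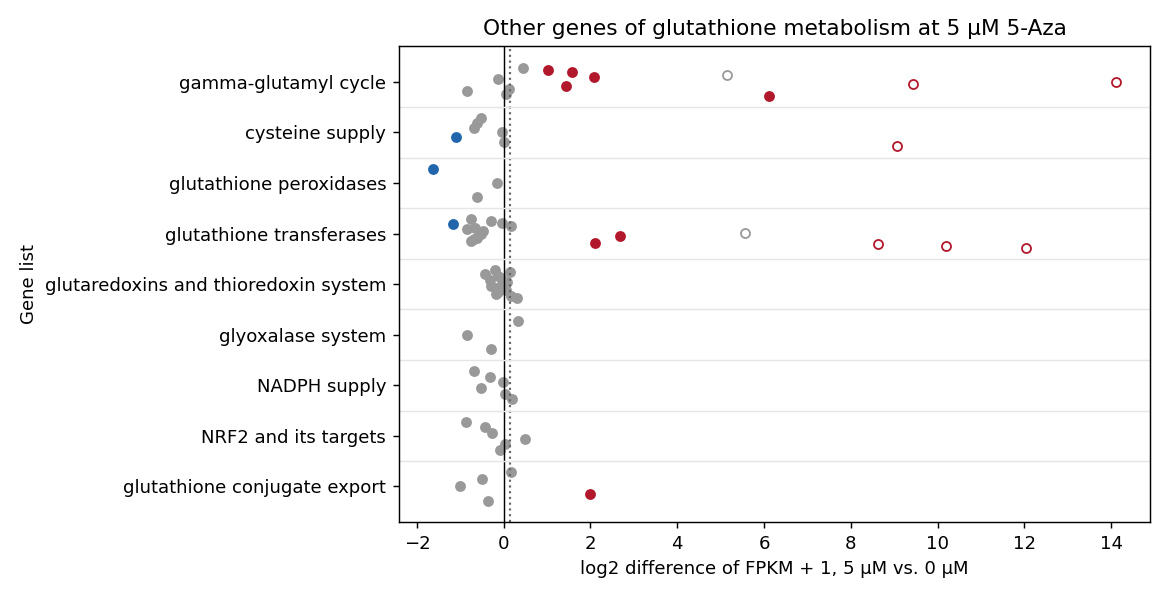
Log2 difference of FPKM + 1 at 5 µM vs. 0 µM (x axis) for each tested gene of 9 lists of further glutathione and redox genes (y axis). Red points rose, blue fell and grey were not called, open points were listed at 0 in at least 1 of the 6 libraries, so that their size depends on the pseudocount of 1, and the dotted line is the median of all genes tested, 0.14. Of 13 gamma-glutamyl cycle genes, 7 are red.

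The genes whose log2(FPKM + 1) followed GGT1 most closely over the 9 samples, among 10112 genes searched, included TM7SF2 (Pearson r = 0.996) and PRSS1 (0.991). TM7SF2, a sterol reductase, had 205875 ± 24435, 430729 ± 23985 and 339182 ± 36888 FPKM (SD, n = 3) at 0 µM, 5 µM and 10 µM. For GGT7 the closest were PHKG2 (0.99), PASK (0.989) and LRRC56 (0.987). PASK, a kinase with a PAS domain, had 36280 ± 4151, 72529 ± 8201 and 69265 ± 7248 FPKM (SD, n = 3). GGT1 and GGT7 had r = 0.955 with each other, which gave GGT7 rank 104 for GGT1 and GGT1 rank 65 for GGT7 among the 10112 genes. The points share 3 groups and each library's scaling, and r is given as a description.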

How the data were processed

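Paired-end RNA-Seq libraries came from 9 HT-29 cultures, 3 each at 0 µM, 5 µM and 10 µM 5-Aza, and groups and replicate numbers came from the sample titles. Reads were aligned by the authors to hg19 with TopHat, and the deposited tables hold 1 FPKM value per gene entry, computed by the authors with Cufflinks. The annotation version is not given in the sources used here. FPKM sums of a library ranged from 3.69e+09 to 5.91e+09, so FPKM is used as a relative level. The tables give no totals of fragments, and depth is therefore known only relative to other libraries. By the step at microRNA genes, depth relative to control replicate 1 was 1.51 in control replicate 2 and 2.14 in control replicate 3. It was 2.41, 2.29 and 2.57 at 5 µM and 1.27, 2.01 and 1.7 at 10 µM. Genes listed at 0 in the controls may therefore lie below what these libraries could detect.

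Entries of 1 symbol were added up, and tests used log2(FPKM + 1). On this FPKM scale a pseudocount of 1 is far below the value of 1 fragment, so differences of genes listed at 0 in a library come out large and depend on it. Genes entered a comparison with at least 1 value of 10 or more in its groups. Pairs of groups were compared with limma 3.58.1 under R 4.3.3 (lmFit, eBayes with an intensity trend) on their 6 samples, the 3 groups with an F test on all 9. P-values were adjusted by Benjamini-Hochberg over all genes tested. They measure the spread between triplicate cultures of 1 line. An exact permutation test of 3 against 3 cannot go below p = 0.1. Tables and plots used Python 3.11.15, pandas 2.3.3, numpy 2.4.6, scipy 1.17.1 and matplotlib 3.10.9, and the fit was tested on simulated data. No pair of libraries shared values that would mark a duplicate.

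The 10 genes, the other gene lists and the rule for named genes were chosen with earlier results of these data known. Beside the 10 genes and the marker genes, the rule named the called gene with the largest rise and fall per list and comparison and the 3 genes most correlated with GGT1 and with GGT7. One result under this rule was left out here. Further called members of a list, GGT3P, GGT8P, SLC7A11 and NQO1 were named after their values were seen. Gene positions are from GENCODE on GRCh37, and promoter windows from RefSeq on GRCh38.p14.

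Alternatives were pseudocounts of 0.1 and 1000, other filters on low values, no fold threshold, limma's treat, 1 fit of all 9 samples, the replicate number as a block, median-of-ratios scaling, the largest entry of a repeated symbol and each replicate left out.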

Additional observations from a re-analysis of the deposited data

How the results depend on the processing

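The 3 rises and 1 fall at 5 µM vs. 0 µM held for the same genes when any 1 replicate was left out, under both other pseudocounts, both other filters, 1 fit of all 9 samples and median-of-ratios scaling. Without a fold threshold 3 genes were called lower there (GSS, GPX2 and GSTP1), and 1 was at 10 µM vs. 0 µM (GSS). The share of all genes called was computed only for the main settings, so counts under other settings have none beside them. Limma's treat, which tests against a fold change of 2, called 0 genes lower at 5 µM vs. 0 µM, 0 lower at 10 µM vs. 5 µM and 0 higher at 10 µM vs. 0 µM. It also lost the rise of GGT7 at 5 µM (adjusted p = 0.0565). With all 9 samples in one fit, 1 gene (GPX2) was called lower at 10 µM vs. 0 µM. Leaving out each replicate in turn gave 0 to 1 genes lower at 10 µM vs. 5 µM, 1 to 2 higher and 0 to 2 lower at 10 µM vs. 0 µM, and 4 to 8 by the F test, the highest without 10 µM replicate 2. Leaving out a replicate also moved the log2 difference of 10 µM vs. 5 µM across 0 for genes that were not called: it ranged from -0.16 to 0.28 for GSTP1, -0.16 to 0.38 for GPX2 and -0.22 to 0.03 for GSS. Median-of-ratios scaling turned the sign of uncalled differences too, to 0.08 for GGT7, 0.04 for GCLC and 0.08 for GSS at 10 µM vs. 5 µM and to 0.06 for GCLM at 10 µM vs. 0 µM. The F test called 4 to 7 genes under the remaining settings. Deviations from the group means had correlations of -0.07 to 0.09 over 9 pairs of same-numbered replicates of different groups. They were -0.16 to 0.1 over 18 pairs with different numbers. No pairing by number was seen, but such values cannot tell whether the cultures were set up together. With the replicate block 3 genes rose and 1 fell at 5 µM vs. 0 µM, 1 fell at 10 µM vs. 5 µM and 2 rose at 10 µM vs. 0 µM, the same genes as without it, and the F test called 6. The causes of these shifts were not tested. Depth limits GGT5 most, since its values rest on 0 to 17 units per library, and the remaining 9 genes had an estimated 194 units or more in each.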
